A study of Homo sapiens with 9 samples.

Results

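Notch signalling genes were followed through the derivation of perivascular progenitors from human embryonic stem cells (hESC). The group comprised 9 genes chosen by name, with earlier results of these data known. They were the receptors NOTCH2 and NOTCH3, the ligands DLL1, DLL3 and DLK1, the effectors HEY1, HEY2 and HEYL, and the coactivator MAML2. All probes that the platform annotation gives to these symbols were taken, which were 12 of the 20127 probes in the authors' normalised table. DLL3, DLK1 and HEY1 had 2 probes each and the other 6 genes had 1. All 12 probes passed the detection filter and entered the fit across 21683 probes, which by the brightest named probe per gene covered 11991 genes.

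Total RNA of 9 samples of the H9 line, an established hESC line, was measured on Illumina human expression bead arrays, with 3 arrays in each of 3 groups. The progenitors were grown from dissociated embryoid bodies that had spent 6 days in 40 nM BMP4: cells that stuck to collagen-coated plates in the endothelial medium EGM2-MV were kept and passaged. The embryoid bodies were aggregates in suspension, given 40 nM BMP4 for 6 days. The hESC were undifferentiated cultures on mouse embryonic fibroblast feeders with 4 ng/ml bFGF. The groups share 1 cell line and carry no genetic change in the labels, and the progenitors carry the earlier BMP4 exposure as well as the change of medium and substrate. The progenitors were a plate-adherent fraction with no sort named in the labels. The labels do not say whether the 3 arrays of a group came from separate cultures, so the p-values measure only the spread between these arrays, which may be technical.

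The arrays detected 38% to 44.7% of 47323 probes. Array 3 of the hESC and array 2 of the progenitors stood apart within their groups: hESC 3 differed at least 2-fold from the other hESC arrays at 446 and 425 genes, and progenitor 2 from the other progenitor arrays at 657 and 600 genes. The remaining arrays of a group were close to each other, with 29 such genes between progenitors 1 and 3, 6 to 43 among the embryoid bodies and 2 between hESC 1 and 2. The pluripotency gene NANOG was at 5.23 on hESC 3, where it was not detected, against 11.23 and 11.18 on hESC 1 and 2 (log2 normalised intensity). The label of each group was set against marker genes. The progenitors carried the mural markers PDGFRB (mean 11.95), ACTA2 (12.70) and ANPEP (8.64), all of which rose against both other groups. TAGLN rose against embryoid bodies (1.36) but not against hESC (0.39), where the groups overlapped. RGS5 was lower in progenitors than in hESC (-0.81, limma adjusted p 0.00436) and embryoid bodies (-0.54, adjusted p 0.0313). Both differences were under 2-fold, with no overlap. POU5F1, SOX2 and NANOG were undetected in progenitors. LIN28A (mean 7.41) and DNMT3B (8.07) fell against both other groups but were detected on all 3 progenitor arrays. The embryoid bodies kept the pluripotency markers, with means of 13.22 for POU5F1 and 11.24 for SOX2, against 12.85 and 11.68 in hESC. Because these are bulk samples, fewer cells of a type and less RNA per cell cannot be told apart in any value that follows.

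Notch receptors are cleaved when a ligand on a neighbouring cell engages them, and the released intracellular domain enters the nucleus. There it joins the DNA-binding protein RBPJ and a Mastermind coactivator to switch on genes. Among these genes are members of the HES and HEY families of basic helix-loop-helix repressors. NOTCH3 and NOTCH2 are known from pericytes and vascular smooth muscle, DLL1 and DLL3 from the segmenting mesoderm, and HEY genes from developing vessels and heart.

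HEY2 and HEYL showed the steepest falls in progenitors among the effectors, and their promoters are printed because RBPJ binds DNA at TGGGAA, most readily as GTGGGAA. The window runs from 250 bases before to 30 bases after the annotated start, on the strand of the gene, from RefSeq on GRCh38.p14. HEY2 lies on the plus strand at chr6:125749382-125749661 and HEYL on the minus strand at chr1:39639614-39639893. Capitals mark TGGGAA or its reverse complement.
HEY2: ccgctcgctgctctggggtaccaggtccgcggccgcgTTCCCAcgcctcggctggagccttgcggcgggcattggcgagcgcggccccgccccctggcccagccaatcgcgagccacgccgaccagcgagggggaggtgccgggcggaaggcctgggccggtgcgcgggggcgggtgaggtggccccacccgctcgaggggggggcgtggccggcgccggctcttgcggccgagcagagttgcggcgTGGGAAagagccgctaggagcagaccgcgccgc
HEYL: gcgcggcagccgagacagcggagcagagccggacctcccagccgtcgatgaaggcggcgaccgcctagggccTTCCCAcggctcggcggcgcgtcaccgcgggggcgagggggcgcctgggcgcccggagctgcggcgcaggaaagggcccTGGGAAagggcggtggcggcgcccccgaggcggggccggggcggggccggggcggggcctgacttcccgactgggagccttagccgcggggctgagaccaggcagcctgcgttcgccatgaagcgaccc
HEY2 held 2 matches, at -213 to -208 on the reverse strand and at -3 to 3 on the forward strand, counted from the start with no position 0, and both extended to GTGGGAA. HEYL held 2 matches, at -178 to -173 on the reverse strand and at -99 to -94 on the forward strand, and that on the reverse strand extended to GTGGGAA. Both strands were searched for both words, and every GTGGGAA also counts as a TGGGAA. Of 35116 promoters of the same length, 22.8% held at least 1 TGGGAA and 3.48% at least 2, and the corresponding shares for GTGGGAA were 5.92% and 0.219%. The windows of NOTCH2, NOTCH3 and MAML2 held neither word. Promoters of 5 of the 9 genes were in the table. A match of letters is a description and shows no binding.

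Values below are log2 normalised intensities of single arrays in the order 1, 2, 3, and they rank groups for 1 probe, never 1 probe against another. A probe is said to have risen or fallen when its adjusted p in limma was under 0.05 and its difference was at least 2-fold, which is 1 on the log2 scale. Between progenitors and hESC, 10 of the 12 probes changed, 4 up and 6 down, against 29.5% of all probes tested (14.1% up and 15.4% down). Between progenitors and embryoid bodies, 9 changed, 4 up and 5 down, against 29.9% of all probes (14.7% up and 15.2% down). Between embryoid bodies and hESC, 2 changed, both up, against 2.72% of all probes (1.28% up and 1.43% down). Both comparisons with progenitors use the same progenitor arrays, and those with hESC the same hESC arrays, so the counts are not independent. Because the members were chosen with earlier results of these data known, their shares cannot be read as an enrichment of Notch genes.

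**Figure D1:**
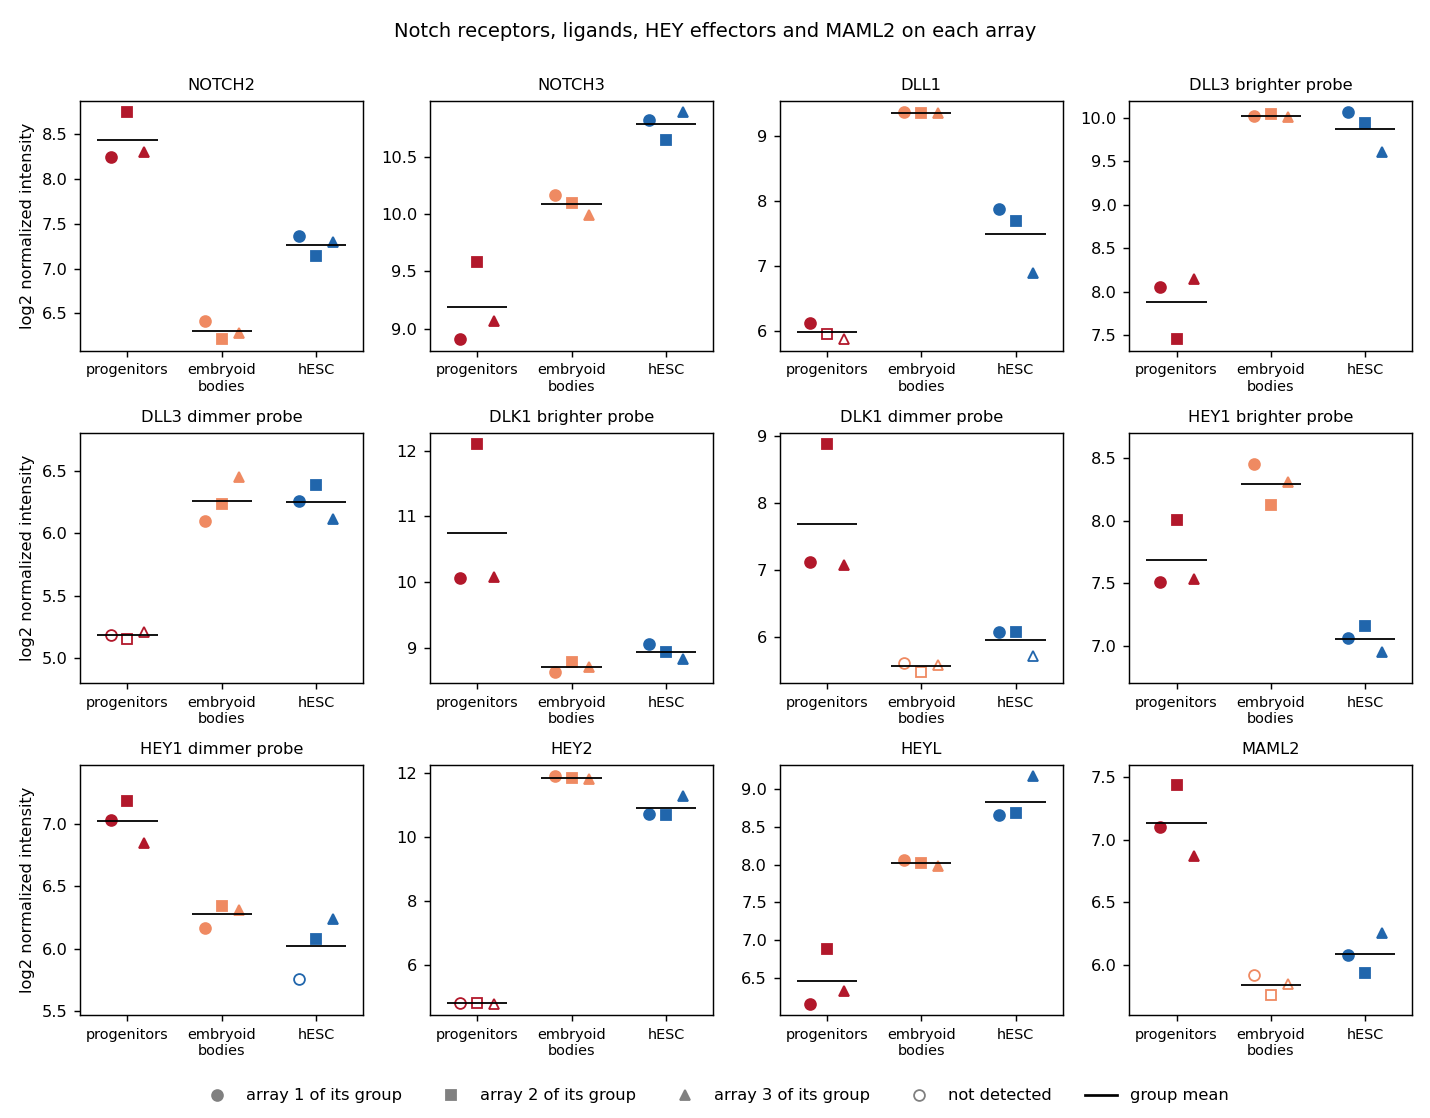
Log2 normalised intensity of each of the 12 probes on each of the 9 arrays, in panels with separate axes. Filled symbols are detected arrays, open symbols are arrays with a detection p-value of 0.05 or more, symbol shape gives the array number and lines are group means (n = 3). HEY2 was undetected on all 3 progenitor arrays and above 10.7 on all others, and DLK1 was highest on progenitor 2 for both probes.

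The receptors changed in opposite directions between progenitors and hESC. NOTCH2 (probe ILMN_2405297, chromosome 1) stood at 8.25, 8.75 and 8.30 in progenitors, at 6.41, 6.21 and 6.29 in embryoid bodies and at 7.37, 7.14 and 7.30 in hESC. The groups did not overlap, and the order ran progenitors, hESC, embryoid bodies. The signal in embryoid bodies was weak, with detection p-values of 0.010, 0.022 and 0.0078. NOTCH2 rose in progenitors by 1.16 against hESC (SE 0.14, limma adjusted p 8.52e-05) and by 2.13 against embryoid bodies (SE 0.14, adjusted p 1.36e-06). Embryoid bodies differed from hESC by -0.97 (adjusted p 0.00313), just under 2-fold, and it passed 2-fold without hESC 2 (-1.03) or without embryoid body 1 (-1.02). NOTCH2 has near-identical partial copies, the NOTCH2NL genes, whose transcripts the probe could also measure, so its values are uncertain in that respect.

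NOTCH3 (ILMN_1658926, chromosome 19) stood at 8.90, 9.58 and 9.07 in progenitors, at 10.17, 10.09 and 9.99 in embryoid bodies and at 10.82, 10.65 and 10.89 in hESC. Here hESC were highest, embryoid bodies between and progenitors lowest, with no overlap between groups. In progenitors NOTCH3 fell by 1.60 on the log2 scale against hESC (SE 0.17, limma adjusted p 2.69e-05). Against embryoid bodies the difference was -0.90 (adjusted p 0.00117), and it was -1.10 and past 2-fold without progenitor 2, the highest progenitor array. Embryoid bodies differed from hESC by -0.70 (adjusted p 0.0214), under 2-fold.

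Of the ligands, DLL1 rose in embryoid bodies and fell in progenitors. DLL1 (ILMN_1743373, chromosome 6), an activating Delta ligand, stood at 6.12, 5.95 and 5.88 in progenitors, where 1 of 3 arrays detected it, at 9.37, 9.36 and 9.36 in embryoid bodies and at 7.89, 7.71 and 6.90 in hESC. The groups did not overlap, and hESC 3 was the lowest hESC array, 0.90 below the mean of the other 2. DLL1 rose in embryoid bodies by 1.87 against hESC (SE 0.22, limma adjusted p 0.00115). In progenitors it fell by 3.38 against embryoid bodies (adjusted p 1.09e-06) and fell by 1.51 against hESC (adjusted p 0.000256). Without hESC 3 the rise in embryoid bodies was 1.57 (adjusted p 0.000153).

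DLL3, a divergent Delta protein known to act inside the cell that makes it, overlapped between embryoid bodies and hESC and was lower in progenitors. Its brighter probe (ILMN_1736096, chromosome 19) read 8.06, 7.45 and 8.15 in progenitors, 10.01, 10.05 and 10.00 in embryoid bodies and 10.06, 9.94 and 9.61 in hESC. All progenitor arrays were below all others, and the embryoid body and hESC arrays overlapped. In progenitors DLL3 fell by 1.98 against hESC (SE 0.19, limma adjusted p 1.39e-05). It fell by 2.14 against embryoid bodies (adjusted p 8.01e-06). Embryoid bodies minus hESC gave 0.15 (95% interval -0.27 to 0.58), and -0.18 under median scaling. The dimmer probe (ILMN_1753287) was detected on no progenitor array, with group means of 5.18 in progenitors, 6.26 in embryoid bodies and 6.25 in hESC. By that probe DLL3 fell to a level at least 1.14-fold lower than in embryoid bodies (adjusted p 3.61e-05) and at least 1.13-fold lower than in hESC (adjusted p 3.9e-05), the bounds being set by the dimmest detected signals. The call against embryoid bodies was lost without embryoid body 3, at -0.98.

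DLK1, a ligand-like protein that lacks the receptor-binding domain of Delta ligands and is known from preadipocytes and fetal tissues, was highest in progenitors and varied most there. The brighter probe (ILMN_1797519, chromosome 14) read 10.07, 12.09 and 10.09 in progenitors, 8.65, 8.80 and 8.71 in embryoid bodies and 9.07, 8.95 and 8.83 in hESC. No group overlapped another, but embryoid bodies and hESC were separated by only 0.034. Their difference was -0.23 (limma adjusted p 0.778). Progenitor 2 stood 4.04-fold above the mean of the other 2 progenitor arrays. DLK1 rose in progenitors by 1.80 against hESC (SE 0.45, limma adjusted p 0.00662) and by 2.03 against embryoid bodies (SE 0.45, adjusted p 0.00336). Without progenitor 2 the rises were 1.13 (adjusted p 2.24e-05) and 1.36 (adjusted p 7.47e-06), smaller in size and still called.

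The dimmer DLK1 probe (ILMN_1652975) read 7.13, 8.88 and 7.08 in progenitors, 5.61, 5.49 and 5.59 in embryoid bodies, where it was undetected, and 6.08, 6.08 and 5.72 in hESC, where 2 of 3 arrays detected it. Progenitor 2 was again the highest array. DLK1 by this probe rose in progenitors by 1.73 against hESC (limma adjusted p 0.0046) and was at least 3.26-fold higher than in embryoid bodies (adjusted p 0.00135). With near-identical arrays averaged, neither probe kept its call against embryoid bodies (adjusted p 0.0784 for the brighter and 0.0561 for the dimmer).

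The 3 HEY effectors did not move together. HEY2 (ILMN_1682034, chromosome 6), a repressor known from arterial and cardiac development, was undetected at 4.82, 4.81 and 4.80 in progenitors and stood at 11.91, 11.85 and 11.83 in embryoid bodies and at 10.73, 10.70 and 11.30 in hESC. No array of one group overlapped another group, and hESC 3 was the highest hESC array. HEY2 fell in progenitors to a level at least 55.4-fold lower than in embryoid bodies (limma adjusted p 9.2e-10) and at least 28.6-fold lower than in hESC (adjusted p 2.31e-09). In embryoid bodies it was 0.95 above hESC (SE 0.15, adjusted p 0.00425), under 2-fold, and 1.15 above without hESC 3, where it passed 2-fold.

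HEYL (ILMN_1654324, chromosome 1), a HEY family member known in mice from smooth muscle and presomitic mesoderm, stood at 6.15, 6.87 and 6.32 in progenitors, at 8.06, 8.02 and 7.98 in embryoid bodies and at 8.66, 8.68 and 9.17 in hESC. Progenitors were lowest and hESC highest, with no overlap. In progenitors HEYL fell by 2.39 against hESC (SE 0.20, limma adjusted p 5.62e-06) and fell by 1.57 against embryoid bodies (adjusted p 9.21e-05). Embryoid bodies differed from hESC by -0.81 (adjusted p 0.0235), under 2-fold. HEY2 and HEYL, which both fell in progenitors, thus had opposite signs between embryoid bodies and hESC, although neither passed the 2-fold threshold there.

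HEY1, a repressor that Notch induces in many cell types, was the member whose probes ordered the groups differently. The brighter probe (ILMN_1788203, chromosome 8) read 7.51, 8.01 and 7.53 in progenitors, 8.45, 8.12 and 8.31 in embryoid bodies and 7.06, 7.15 and 6.95 in hESC. Embryoid bodies were highest and hESC lowest, with progenitor 2 close under the lowest embryoid body array. By this probe HEY1 rose in embryoid bodies by 1.24 against hESC (SE 0.15, limma adjusted p 0.00142), and in progenitors it differed from hESC by 0.63 (adjusted p 0.00585) and from embryoid bodies by -0.61 (adjusted p 0.00659), both under 2-fold.

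The dimmer HEY1 probe (ILMN_2407308) read 7.03, 7.18 and 6.84 in progenitors, 6.17, 6.34 and 6.31 in embryoid bodies and 5.75, 6.08 and 6.24 in hESC, where 2 of 3 arrays detected it. Here progenitors were highest, and embryoid bodies and hESC overlapped. The differences were 0.995 for progenitors minus hESC (just under 2-fold, limma adjusted p 0.000238), 0.74 for progenitors minus embryoid bodies (adjusted p 0.00146) and 0.25 for embryoid bodies minus hESC (adjusted p 0.274). That for progenitors minus hESC passed 2-fold without hESC 2 (1.02), hESC 3 (1.10) or progenitor 3 (1.08). The 2 probes thus put progenitors and embryoid bodies in opposite order.

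The change of the brighter minus that of the dimmer HEY1 probe was -1.36 for progenitors minus embryoid bodies (two-sided exact permutation p 0.1, which is the smallest that 3 against 3 arrays can give, and 0.225 adjusted over 9 such tests). Across the 9 arrays the 2 HEY1 probes correlated with a Pearson r of 0.238, against 0.993 for the DLK1 pair and 0.968 for the DLL3 pair, as a description over arrays that fall into 3 groups. The dimmer DLL3 probe was at background on all 3 progenitor arrays, so the size of its fall was not compared with that of the brighter probe.

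**Figure D2:**
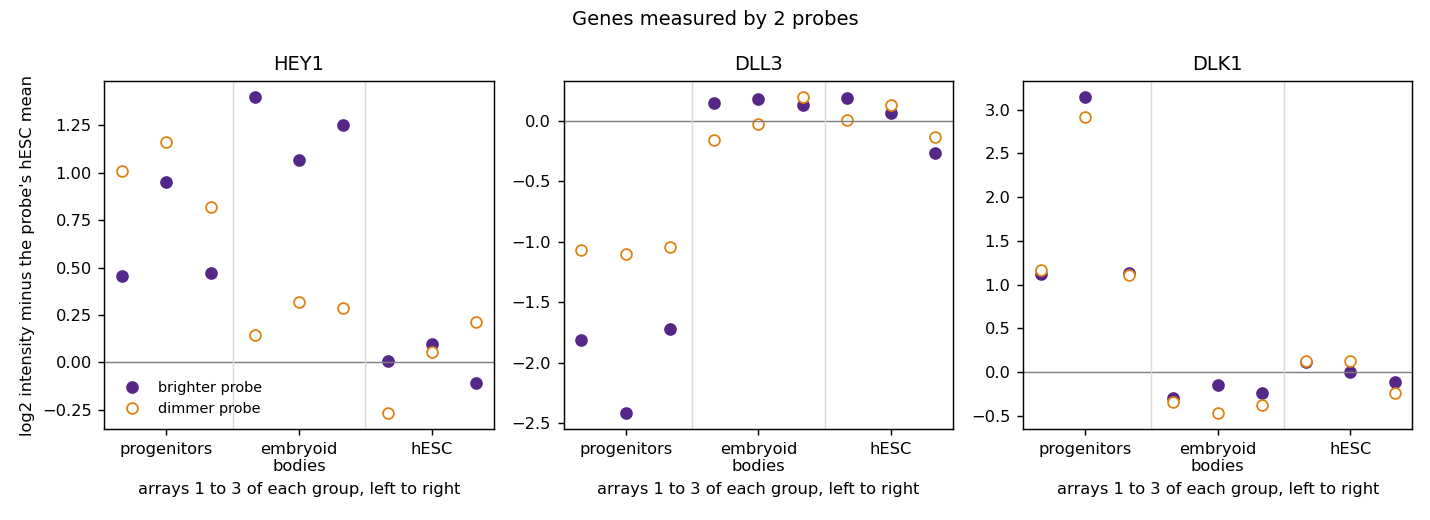
Log2 intensity minus the mean of the same probe in hESC for the 3 genes with 2 probes, on each of the 9 arrays. Filled points are the brighter and open points the dimmer probe. The DLK1 probes move together across the groups, whereas the HEY1 probes separate in embryoid bodies, where the brighter probe lies about 1.24 above its hESC mean on average and the dimmer 0.25.

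MAML2 (ILMN_1765729, chromosome 11), a Mastermind coactivator of the Notch complex on DNA, was highest in progenitors. It stood at 7.10, 7.44 and 6.87 in progenitors, at 5.92, 5.76 and 5.84 in embryoid bodies, where it was undetected, and at 6.08, 5.93 and 6.25 in hESC. The progenitor arrays were above all others, and embryoid bodies and hESC were separated by 0.011. MAML2 rose in progenitors by 1.05 against hESC (SE 0.15, limma adjusted p 0.000229) and was at least 2.21-fold higher than in embryoid bodies (adjusted p 5.4e-05). The rise against hESC was near the threshold and dropped under 2-fold without hESC 2 (0.97) or progenitor 2 (0.90). Embryoid bodies minus hESC gave -0.25 (adjusted p 0.307).

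**Figure D3:**
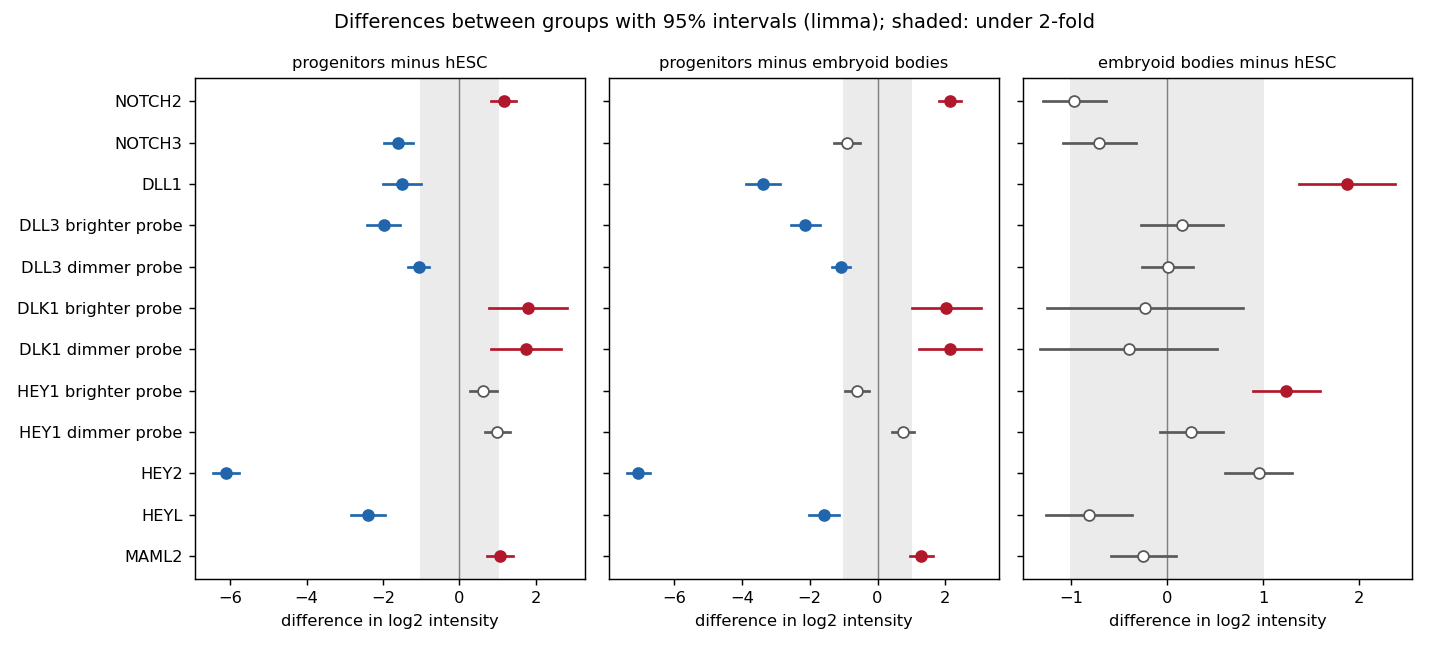
Difference in log2 intensity between groups for each probe with its 95% interval from limma (n = 3 arrays a group), in 3 panels with separate axes. Red points rose, blue points fell, open points did not pass both thresholds, and the grey band marks differences under 2-fold. NOTCH2, DLK1 and MAML2 lie to the right and DLL1, DLL3, HEY2 and HEYL to the left in both comparisons of progenitors, while DLL1 and the brighter HEY1 probe lie to the right in embryoid bodies minus hESC.

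By the brightest probe of each gene, 3 of 9 genes rose and 5 fell in progenitors against hESC, 3 rose and 4 fell against embryoid bodies, and 2 rose in embryoid bodies against hESC. Of all 11991 genes, 33.7% were called in progenitors against hESC (14.7% up, 19% down), 34.2% against embryoid bodies (15.3% up, 18.9% down) and 3.08% in embryoid bodies against hESC (1.5% up, 1.58% down). The choice of the 9 genes with earlier results known limits this comparison in the same way. The genes moved both ways, so their median depends on the probes taken: by brightest probe it was -1.51, -0.90 and -0.23 in those 3 comparisons (all genes -0.07, -0.08 and -0.01), and over all 12 probes it was -0.22, -0.76 and -0.11. When arrays of a group that differed 2-fold at fewer than 50 genes were averaged, which left 5 columns, limma called 0 probes between embryoid bodies and hESC, DLL1 and HEY1 included (differences of 2.02 and 1.27, adjusted p 0.454 and 0.487). At an unadjusted p under 0.05 that fit held 1710 of all probes. Without background correction, and likewise in the authors' values, 9 calls dropped under 2-fold with the adjusted p still under 0.05: NOTCH2, DLL1, MAML2 and the dimmer DLL3 and DLK1 probes against hESC, HEYL, MAML2 and the dimmer DLL3 probe against embryoid bodies, and HEY1 in embryoid bodies against hESC. Under median scaling the rises of NOTCH2 (0.91) and MAML2 (0.88) against hESC and of HEY1 in embryoid bodies (0.91) dropped under 2-fold, whereas NOTCH2, NOTCH3 and HEYL passed 2-fold downward in embryoid bodies against hESC (-1.19, -1.02 and -1.15).

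Markers of other cell types moved along the same comparisons. The mean level of the 5 pluripotency markers was 6.05 to 6.21 in progenitors, 12.77 to 12.83 in embryoid bodies and 11.78 to 12.84 in hESC, and all 5 fell in progenitors against both. NANOG against hESC did not keep its call when hESC 1, hESC 2 or any single progenitor array was left out (adjusted p 0.0517 to 0.0876). Of 5 neural progenitor markers 3 were tested, with means of 6.65 to 6.96 in progenitors, 9.10 to 9.14 in embryoid bodies and 10.16 to 10.29 in hESC. OTX2 and FABP7 were undetected in progenitors. NES was detected on all 3 progenitor arrays (mean 10.41). In progenitors it was lower than in hESC (-0.95, limma adjusted p 0.00895) and embryoid bodies (-0.98, adjusted p 0.00755). Both differences were under 2-fold and not called, with no overlap. Of 5 paraxial mesoderm markers 1 was tested, MESP1, a factor of early mesoderm, with 5.46 to 5.56 in progenitors, where it was undetected, 6.33 to 6.56 in embryoid bodies and 5.63 to 8.36 in hESC, lowest on hESC 3. Their part in the differences of DLL1, DLL3, HEY2, HEYL and NOTCH3 was not tested.

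Of 8 mural markers 5 were tested, with mean levels of 10.50 to 10.68 in progenitors, 7.75 to 7.87 in embryoid bodies and 8.24 to 8.66 in hESC. Of 9 endothelial markers 2 were tested, the receptors KDR and TEK, averaging 8.63 to 9.93 in progenitors, 8.39 to 8.43 in embryoid bodies and 9.20 to 9.46 in hESC. The average covers opposite changes: against embryoid bodies TEK rose in progenitors by 2.97 (limma adjusted p 0.000159) and KDR fell by 1.48 (adjusted p 0.0136, and 0.269 with near-identical arrays averaged), and TEK fell by 1.93 in embryoid bodies against hESC (adjusted p 0.013). The highest of the progenitor averages was on array 2, which was also the highest progenitor array for NOTCH2, NOTCH3, DLK1, HEY1, HEYL and MAML2 and the lowest for the brighter DLL3 probe. Of 5 hematopoietic markers 2 were tested, at 5.63 to 5.99 in progenitors, 6.28 to 6.71 in embryoid bodies and 6.43 to 6.53 in hESC. The other listed markers were not analysed here, and the part of these cell types in the differences of NOTCH2, DLK1 and MAML2 was not tested.

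Of 61 other Notch pathway genes on the list, 50 were tested by their brightest probe. In progenitors against hESC 6 rose and 9 fell, which is 30% of them beside 33.7% of all genes. Against embryoid bodies 6 rose and 9 fell, again 30% beside 34.2%. In embryoid bodies against hESC 1 rose and 1 fell, which is 4% beside 3.08%. Their median differences were -0.25, -0.29 and -0.12.

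Among the ligands, JAG2 in progenitors fell by 1.22 against hESC and fell by 1.64 against embryoid bodies, with limma adjusted p of 0.000378 and 5.28e-05. JAG1 fell by 1.14 against embryoid bodies (adjusted p 0.00438), with 7.75, 6.63 and 7.73 in progenitors, and the difference was -0.77 without progenitor 2. DNER, a neuronal Notch ligand, was undetected in progenitors and at least 2.23-fold lower there than in hESC (adjusted p 0.000781). DNER also fell in embryoid bodies, where 1 of 3 arrays detected it, against hESC (-1.55 to a level mostly at background, adjusted p 0.0174), a call lost without embryoid body 1 (adjusted p 0.0618) or 3 (0.0664). The single other receptor tested, NOTCH1, named after its values were seen, was not called in any comparison. It differed by -0.38 for progenitors minus hESC (limma adjusted p 0.0257) and by -0.36 for progenitors minus embryoid bodies (adjusted p 0.0339), both under 2-fold. For embryoid bodies minus hESC the difference was -0.02 (adjusted p 0.924).

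Of 8 genes of receptor processing, FURIN, the protease that cuts the receptor on its way to the surface, and NCSTN, a subunit of gamma-secretase, rose in progenitors, by 1.76 and 1.14 against hESC and by 1.90 and 1.34 against embryoid bodies. Of 5 glycosylation genes, LFNG, the Lunatic fringe enzyme that alters how receptors respond to ligands, fell by 2.22 against hESC and fell by 1.85 against embryoid bodies. NUMBL, a relative of the Notch inhibitor NUMB and 1 of 11 genes of ubiquitin ligases and endocytosis, rose by 1.17 and 1.13, and the rise against embryoid bodies was 0.96 without embryoid body 3. For these 4 genes the limma adjusted p ranged from 2.52e-07 (FURIN against embryoid bodies) to 0.000209 (NUMBL against embryoid bodies).

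In the nucleus, RBPJ itself fell in progenitors. It read 8.06, 7.97 and 8.01 in progenitors, 9.42, 9.42 and 9.51 in embryoid bodies and 9.55, 9.39 and 10.25 in hESC. Progenitor arrays were below all others, embryoid bodies and hESC overlapped, and hESC 3 was highest. The difference was -1.72 against hESC (limma adjusted p 4.49e-05) and -1.44 against embryoid bodies (adjusted p 0.000143). The acetyltransferase KAT2B rose by 2.32 and 1.98 in the same comparisons, and the acetyltransferase EP300 fell by 1.22 against hESC.

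Of 9 corepressors, TLE1, a Groucho family corepressor, fell by 3.08 against hESC and fell by 2.74 against embryoid bodies. TLE2 fell by 1.57 against hESC and fell by 1.48 against embryoid bodies, with 1 of 3 progenitor arrays detected. The histone deacetylase HDAC2 fell by 1.13 against hESC and fell by 1.25 against embryoid bodies. TLE3 rose by 1.27 and 1.48. Of 4 HES family genes, listed under the role of targets, HES6 fell by 4.23 against hESC and fell by 4.30 against embryoid bodies. It read 6.20, 5.49 and 6.40 in progenitors, where 2 of 3 arrays detected it. The role came from the list, and whether Notch drives HES6 in these cells was not tested. HES4 rose in embryoid bodies by 1.61 against hESC (limma adjusted p 0.000163) and fell by 1.21 in progenitors against embryoid bodies. HES1, named after its values were seen, was not called in any comparison, with differences between -0.18 and 0.01. MAMLD1, a protein resembling the Mastermind coactivators, was undetected in embryoid bodies and detected on 1 of 3 hESC arrays. It rose in progenitors against hESC, where the fitted difference of 2.29 is against a level mostly at background, and was at least 3.90-fold higher than in embryoid bodies. With near-identical arrays averaged, JAG1 (adjusted p 0.0933) and TLE2 (0.0902 against hESC and 0.25 against embryoid bodies) lost their calls in limma. HES4 (limma adjusted p 0.379) and DNER (0.56) lost theirs in embryoid bodies against hESC under the same setting. In the authors' values or with background correction omitted, at least 1 call each of JAG1, JAG2, DNER, NUMBL, TLE2 and TLE3 dropped under 2-fold.

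**Figure D4:**
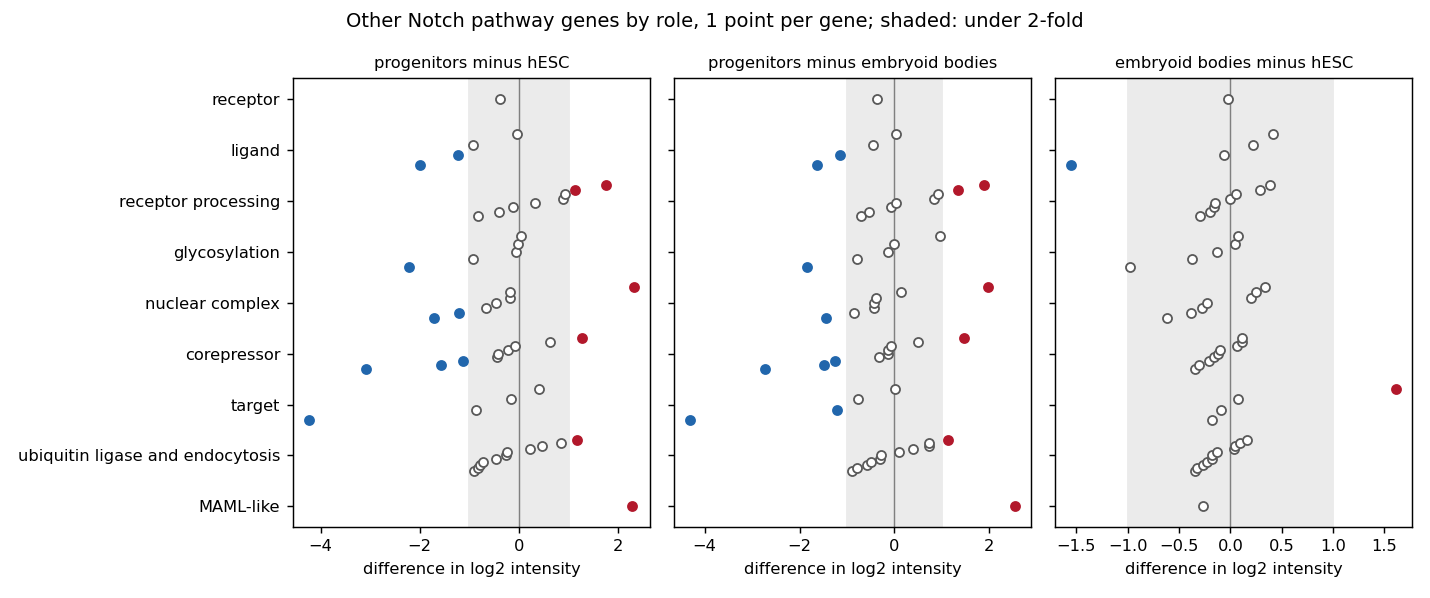
Difference in log2 intensity for the 50 tested genes of the Notch pathway outside the 9, grouped by role, in 3 panels with separate axes. Each point is 1 gene; red rose, blue fell, open points did not pass both thresholds and the grey band marks differences under 2-fold. In both comparisons of progenitors HES6 and TLE1 lie farthest to the left and MAMLD1 and KAT2B farthest to the right, and in embryoid bodies minus hESC HES4 and DNER are the 2 points outside the band.

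The genes whose levels over the 9 arrays correlated best with 3 of the members are named as a description over arrays that share 3 groups. NOTCH3 was followed most closely by TAF1C (Pearson r 0.992), ZMYND8 (0.991) and CERS6 (0.991). DLL1 was followed by ECEL1 (0.998), VSTM2B (0.995) and CDX4 (0.995), each highest in embryoid bodies and lowest in progenitors. The brighter HEY1 probe was followed by TUBE1 (0.974), CRBN (0.973) and GALK1 (0.972), each highest in embryoid bodies and lowest in hESC.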

How the data were processed

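Mean bead intensities and detection p-values for 47323 probes on 9 arrays were taken from the authors' deposited unnormalised table. The authors' second deposited table holds log2 values of 20127 probes, whose normalisation no source states, and served as an alternative. The submitters' processing notes name BeadStudio, whose version, like any genome build, is not given in the sources used here.

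Raw intensities went through neqc of limma 3.58.1 (R 4.3.3), with controls inferred from the detection p-values and an offset of 16, which ends in quantile-normalised log2 values. A probe was tested when at least 3 arrays detected it at p under 0.05. The 9 arrays were fitted together by probe (lmFit, eBayes) with no covariate, with Benjamini-Hochberg adjustment over 21683 probes per comparison. A bound of the form "at least" sets the brighter group's mean against the lowest detected signal on the arrays that did not detect the probe. The number of arrays limits the precision. The fit and the call rule were tested on simulated log2 values for progenitors minus hESC, drawn independently for each array. Independent draws do not reproduce near-identical arrays beside an array that stands apart, so the simulation cannot give the error rate for these arrays. The other steps were not tested in this way.

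Symbols came from the platform annotation, which names 1 gene for 15592 of the tested probes, several for 4 and none for 4531 probes of the authors' table. All probes of the 9 members are named. Of the pathway list, up to 4 called genes per role are named, by size of change, and for NOTCH3, DLL1 and HEY1 the 3 genes of highest Pearson correlation. A listed gene is represented by its brightest probe. The members and lists were chosen with earlier results of these data known.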

Additional observations from a re-analysis of the deposited data

How the results depend on the processing

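The 36 differences of the 12 probes were recomputed under 19 other settings, 9 of which left out 1 array; the fit without both hESC 3 and progenitor 2 was added after the data were seen. Of 675 values, 618 kept their direction and their side of the threshold, 29 lost a call, 22 gained one and 6 changed sign. Of the 22 gains, 9 came from dropping the minimum fold, which on the same fit can only add calls. Many of the 675 could not change sign. The detection filters, 1 probe per gene, no minimum fold and the replicate block leave each difference as it was. So does leaving out an array of the group not compared. The sign changes all concerned DLL3 in embryoid bodies minus hESC, where neither probe was called: the brighter gave -0.18 under median scaling, and the dimmer -0.12 under median scaling, -0.0042 in the authors' values, and -0.062 without both hESC 3 and progenitor 2, with a range of -0.0904 (without embryoid body 3) to 0.0891 when 1 array was left out. Without background correction and in the authors' values, 5 member probes were called in progenitors minus hESC, against 10, and 1 in embryoid bodies minus hESC, against 2. In embryoid bodies minus hESC the member count was 4 under median scaling, 6 with no minimum fold and 0 with near-identical arrays averaged (2 residual degrees of freedom, lowest adjusted p in limma 0.179, 1710 probes at an unadjusted p under 0.05). Leaving out 1 array gave 2 to 3 member probes in embryoid bodies minus hESC, 9 to 11 in progenitors minus hESC and 8 to 10 in progenitors minus embryoid bodies. Over all probes, embryoid bodies minus hESC held 589 calls, and 195 without background correction, 914 under median scaling, 194 in the authors' values, 371 with 1 probe per gene, 3731 with no minimum fold, 0 with near-identical arrays averaged and 490 to 661 without 1 array. Progenitors minus hESC held 6391, and 4012 without background correction, 3535 in the authors' values, 4043 with 1 probe per gene, 13147 with no minimum fold and 6120 to 6526 without 1 array. Progenitors minus embryoid bodies held 6478, and under those settings 4111, 3658, 4099, 13091 and 6307 to 6601. Median scaling moved the median of all probes to -0.22 in embryoid bodies minus hESC and to -0.14 in progenitors minus hESC, and 16.3% of the calls between embryoid bodies and hESC were then higher in embryoid bodies, against 47.2%. Where settings changed a count, the cause was not tested. The replicate number as a block gave 577, 6392 and 6480 calls in the 3 comparisons, in the order above, and changed no member call. Arrays of the same number did not deviate together more than other pairs (correlations of -0.116 to 0.0637, against -0.105 to 0.159). Deviations of 3 arrays from their own mean are tied to each other, so these correlations cannot decide whether the numbers pair the arrays. Of the 61 calls of listed pathway and marker genes, 59 of 1159 recomputed values were not called and 0 changed sign. These genes were taken because the main fit called them at 2-fold or more, so a change of sign was unlikely from the start.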
